A study of Mus musculus with 11 samples.

Results

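The expression of 10 genes of the transforming growth factor β (TGF-β) and activin pathway, taken by symbol from the gene tables, was followed over 11 libraries of mouse embryonic fibroblasts: the ligand genes Tgfb1, Tgfb2, Tgfb3 and Inhba, the receptor genes Tgfbr1, Tgfbr2 and Tgfbr3, the extracellular regulators Ltbp1 and Fst, and the intracellular inhibitor Smad7. All 10 were listed, each as 1 locus, among 46469 symbols, and all 10 passed the filter on low values that left 14942 genes to test. The fibroblasts, of the BALB/c strain and from embryos of day 10.5, differed in the β-actin gene Actb: 4 libraries were Actb +/+ (WT), 4 were Actb +/- (Het) and 3 were Actb -/- (KO). All were grown without any further treatment named in the labels, in high glucose medium with 10% serum, and RNA was taken at 70% confluence. The submitters call the samples biological replicates, but no label ties a sample to an embryo or a culture of its own. Every p-value therefore rests on the spread between these samples, which may be technical, and each genotype may stand for 1 isolate of cells. A KO sample failed the submitters' quality control and was not analysed here, so the KO libraries carry the numbers 1, 3 and 4.

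TGF-β ligands are secreted in a latent form, held by latent TGF-β binding proteins in the matrix, and are released by proteases, thrombospondin or the pull of integrins. Active ligand binds the type II receptor TGFBR2, which recruits and phosphorylates the type I receptor TGFBR1, and TGFBR1 then phosphorylates the transcription factors SMAD2 and SMAD3. Activin A, a dimer of the inhibin βA chain that Inhba encodes, reaches the same SMAD proteins through activin receptors and is neutralised by follistatin. In fibroblasts this pathway is known for driving matrix production and the contractile myofibroblast state, in which actin dynamics take part.

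Start sites of 6 of the 10 genes were found in the RefSeq promoter table (GRCm38.p6). Of these 6, Inhba, Ltbp1 and Tgfbr2 showed the largest falls in Het, and so 3 windows are printed. Fst, which also fell in Het, was not among the 6. The 250 bases before each start site are given 5′ to 3′ on the gene's strand, with matches to the searched motifs in capitals.
Inhba, chr13:16011601-16011850, plus strand: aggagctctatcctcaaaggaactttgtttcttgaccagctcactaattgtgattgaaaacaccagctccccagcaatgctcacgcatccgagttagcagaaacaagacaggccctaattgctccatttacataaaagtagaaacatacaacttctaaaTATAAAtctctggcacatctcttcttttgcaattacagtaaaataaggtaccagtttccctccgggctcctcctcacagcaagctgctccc
Ltbp1, chr17:75005279-75005528, plus strand: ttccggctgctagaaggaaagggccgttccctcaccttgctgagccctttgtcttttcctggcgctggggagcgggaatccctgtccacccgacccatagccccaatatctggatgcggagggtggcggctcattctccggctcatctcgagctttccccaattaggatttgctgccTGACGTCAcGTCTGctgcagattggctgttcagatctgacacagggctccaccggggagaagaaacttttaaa
Tgfbr2, chr9:116175364-116175613, minus strand: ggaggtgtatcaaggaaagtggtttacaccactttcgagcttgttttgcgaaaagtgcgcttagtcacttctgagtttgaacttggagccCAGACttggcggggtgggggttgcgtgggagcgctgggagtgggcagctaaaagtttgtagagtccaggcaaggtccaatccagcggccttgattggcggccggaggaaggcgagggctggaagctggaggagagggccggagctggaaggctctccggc
The Inhba window held TATAAA at -91 to -86 from the start site, a start site that lies inside the Inhba locus of the deposited tables. The window of the first Ltbp1 start site held the cyclic AMP response element TGACGTCA at -73 to -66, followed at -64 to -60 by GTCTG, the reverse complement of the SMAD binding element CAGAC. The Tgfbr2 window held CAGAC at -160 to -156. The Inhba window held no match to CAGAC on either strand. Windows of Tgfb2 and of a Tgfbr1 start site, not printed, also held CAGAC, and neither gene was called in Het against WT. Both strands were searched for 7 motifs, and of 32817 promoter windows of this length 42.2% held CAGAC, 1.55% TGACGTCA, 12.4% TATAAA, 6.75% the AP-1 site TGANTCA, 12.6% the TEAD site GGAATG, 32.7% the GC box GGGCGG and 1.47% the CArG box. Such a match is a description of the sequence, and no binding was measured here. The sites in the 3 windows do not overlap each other.

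The labels were checked against the targeted gene. Actb lay between 1072 and 1527 scaled FPKM (read fragments per unit of transcript length and of library size, here also scaled between libraries) in WT, 819 and 873 in Het and 44.8 and 47.2 in KO, so each library matched its label. Relative depth ran from 61.3% of WT 1 in WT 3 to 126% in WT 4, with KO 1 at 66.2%, and between 13866 and 14165 genes reached 1 FPKM. Limma called 7050 genes between KO and WT (47.2%) at an adjusted p under 0.05, 6546 between Het and WT (43.8%) and 6632 between KO and Het (44.4%). Of the calls in KO against WT, 49.8% were higher, and without scaling between libraries 37.1% were; in KO against Het the shares were 49.2% and 36.5%. Without scaling the median of all genes lay at -0.08 and -0.09 in these comparisons, against 0.01 and 0.00 with it. Fibroblast markers summed to 1950 to 2384 FPKM in WT, 2892 to 3209 in Het and 4062 to 4694 in KO, although the fibroblast markers Thy1 and Pdgfra averaged 0.0247 and 0.21 FPKM in WT. Smooth muscle markers summed to 98 to 117, 240 to 256 and 7148 to 7921 FPKM, led by Acta2 and Tagln. Of them, 5 of 6 tested ones were higher in KO than in WT (23.5% of all tested genes were). Smtn was not called in KO (0.73, adjusted p = 0.062), and Myh11, at 0.462, 0.388 and 0.916 FPKM in WT, Het and KO, was too low to test. Fibroblast markers were led by Vim and S100a4, and Ddr2 among them averaged 44.3, 51.1 and 4.40 FPKM in WT, Het and KO (-3.08 in KO, adjusted p = 1.17e-08). Leukocyte markers summed to 4.90 to 6.82, 7.62 to 9.65 and 4.79 to 9.06 FPKM, with Ptprc and Emr1 at 0 in every library and Cd14 higher in Het than in WT (3.23 and 6.34 FPKM, adjusted p = 0.000761). Endothelial markers summed to 1.92 to 3.40, 1.24 to 1.58 and 0.975 to 1.04 FPKM, with Emcn and Tie1 at 0 in every library and Flt4 lower in Het and KO (2.30, 1.28 and 0.507 FPKM, adjusted p = 0.00633 and 5.49e-05). Epithelial markers, led by Krt19, summed to 28.8 to 70.2, 27.6 to 39.2 and 29.5 to 46.8 FPKM. Among them Krt18 averaged 1.69, 6.53 and 0.215 FPKM (1.46 in Het and -1.14 in KO, adjusted p = 1.59e-05 and 0.000128). Neural markers were led by Nes, at 114, 57.9 and 94.8 FPKM (-0.97 in Het and -0.26 in KO, adjusted p = 8.34e-08 and 0.00137). Map2 fell in Het and rose in KO (3.24, 0.596 and 10.6 FPKM), and Tubb3 rose in Het. Krt18 and Flt4 lay below 1 FPKM in every KO library and so entered the test through WT and Het. Map2 lay below 1 FPKM in every Het library and so entered it through WT and KO. Xist, whose RNA coats the inactive X chromosome, averaged 0.050 FPKM in WT, 48.9 in Het and 0.0447 in KO, so the genotype and whatever else set the Het libraries apart cannot be told apart.

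Most of the 10 genes were higher in KO, and Het cells were not simply between WT and KO. In KO against WT, 8 of the 10 genes rose (23.5% of all tested genes did), 1 fell (23.7%) and 1, Tgfb1, was not past the threshold. In Het against WT, 2 rose (22.2%), 4 fell (21.6%) and 4 were not called. In KO against Het, 7 rose (21.8%), 0 fell (22.6%) and 3 were not called. Differences of at least 2-fold on the log2(FPKM + 1) scale numbered 6 of the 10 in KO against WT (7.55% of tested genes), 3 in Het against WT (4.68%) and 3 in KO against Het (6.4%). The median log2 difference of the 10 genes was 0.94 in KO against WT, beside 0.01 over all tested genes, and -0.06 in Het against WT, beside 0.02. The WT libraries serve both of these comparisons. Their median size of difference, without regard to sign, was 1.04 and 0.50, beside 0.29 and 0.25 over all genes. Leaving out any 1 library left 8 or 9 genes higher and 1 lower in KO, and 2 higher and 4 lower in Het. In bulk RNA, fewer cells of a type and less RNA per cell cannot be told apart, which holds for every level given here. The summed smooth muscle markers were also highest in KO, and their part in these differences was not tested.

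**Figure D1:**
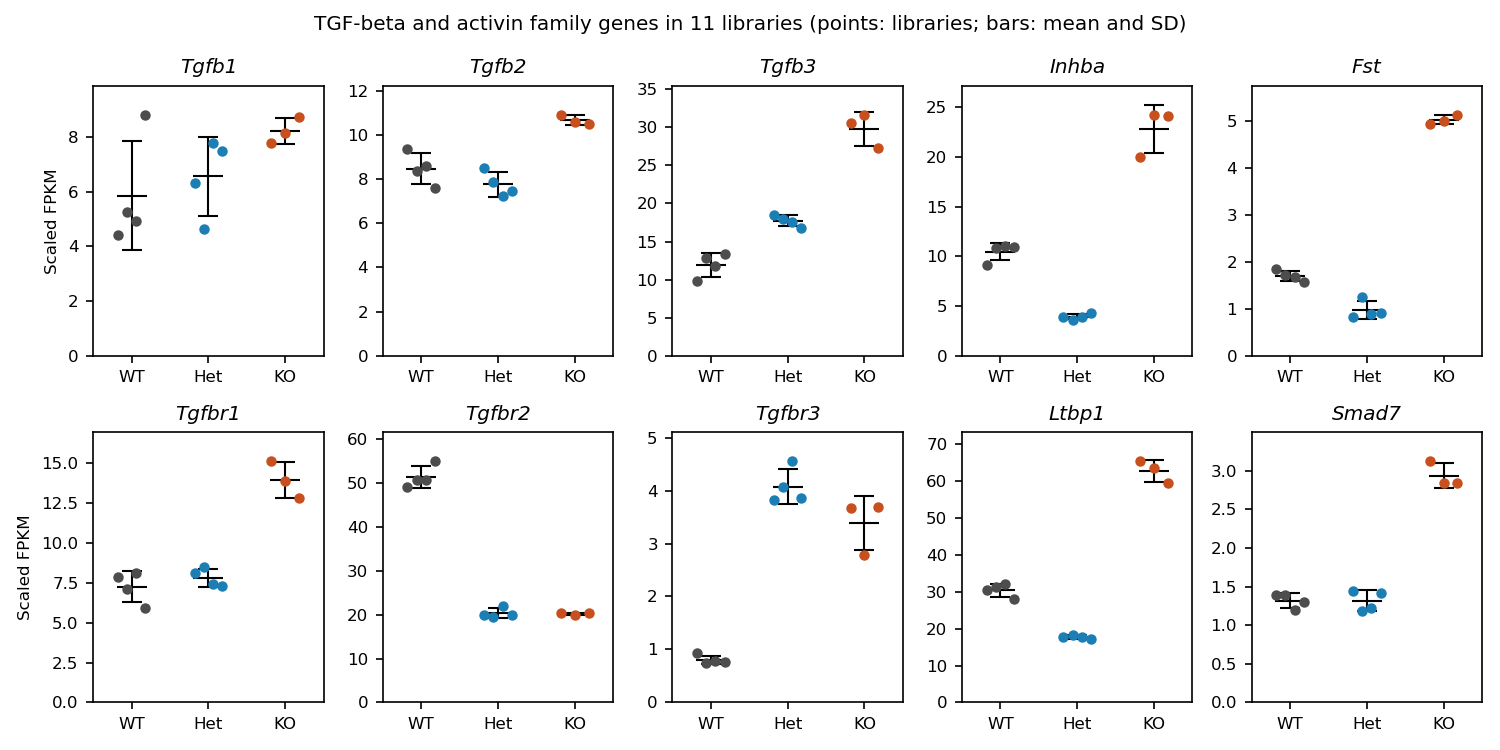
Scaled FPKM (linear axes from 0) of the 10 genes in each of the 11 libraries, with the mean and SD of WT (n = 4), Het (n = 4) and KO (n = 3). Inhba, Fst and Ltbp1 lay lowest in Het and highest in KO, while Tgfbr2 lay near 20 FPKM in both Het and KO.

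Of the genes of the 3 TGF-β isoforms, Tgfb3 differed most between genotypes. It encodes TGF-β3, an isoform known for palate fusion and wound repair (gene30790, chromosome 12, 86056743 to 86079041 on GRCm38). Tgfb3 measured 9.85, 12.8, 11.8 and 13.3 FPKM in WT 1 to 4, 18.5, 18, 17.5 and 16.8 in Het 1 to 4, and 30.5, 31.6 and 27.3 in KO 1, 3 and 4. The 3 genotypes did not overlap, with WT lowest, Het between and KO highest. The means were 11.9 ± 1.54 (SD, n = 4), 17.7 ± 0.724 (SD, n = 4) and 29.8 ± 2.26 (SD, n = 3), or 1.48 times WT in Het and 2.49 times in KO. On the log2(FPKM + 1) scale, which understates changes of low genes, the difference from WT was 0.54 in Het (SE 0.09, adjusted p = 0.000587) and 1.26 in KO (SE 0.09, adjusted p = 1.57e-06). The Het level lay 0.09 below the midpoint of WT and KO on that scale, a difference within its error (95% interval -0.26 to 0.08, adjusted p = 0.375).

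Tgfb2, which encodes the isoform TGF-β2 (gene2564, chromosome 1, 186622787 to 186709033), moved far less. It measured 9.35, 8.35, 8.59 and 7.61 FPKM in WT 1 to 4, 8.50, 7.87, 7.24 and 7.45 in Het 1 to 4, and 10.9, 10.6 and 10.5 in KO 1, 3 and 4. All KO libraries lay above all WT and Het libraries, and WT and Het overlapped. The rise in KO was 1.26-fold in means (log2 0.30, SE 0.08, adjusted p = 0.00754), and under quantile normalization it was 0.24 with an adjusted p of 0.0615. Against Het the KO level was higher by 0.41 (SE 0.08, adjusted p = 0.00117). Het lay -0.11 from WT (95% interval -0.27 to 0.05, adjusted p = 0.231).

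Tgfb1, which encodes TGF-β1, the most studied isoform in fibrosis (gene17338, chromosome 7, 25687002 to 25704996), was the most variable of the 10 genes in WT. It measured 4.42, 5.24, 4.93 and 8.80 FPKM in WT 1 to 4, 6.31, 4.62, 7.79 and 7.50 in Het 1 to 4, and 7.76, 8.14 and 8.72 in KO 1, 3 and 4. WT 4 lay above every KO library, and Het spanned both groups. The coefficient of variation was 34.2% in WT, 22.0% in Het and 5.93% in KO. KO against WT gave 0.47 (95% interval 0.02 to 0.92, adjusted p = 0.0826). Without WT 4 it gave 0.65 with an adjusted p of 0.00473, so that 1 library decides whether Tgfb1 counts among the genes that rose. Het against WT gave 0.16 (95% interval -0.26 to 0.58, adjusted p = 0.524).

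Summed, the 3 TGF-β ligand genes came to 26.3 ± 2.59, 32.0 ± 1.20 and 48.7 ± 2.01 FPKM in WT, Het and KO (SD, n = 4, 4 and 3). FPKM is per length, so shares of this sum can be compared between genes. Tgfb3 made up 45.4% ± 2.90 of the sum in WT, 55.3% ± 2.69 in Het and 61.2% ± 2.17 in KO (SD, n = 4, 4 and 3). Its share ranged from 41.7% to 48.6% over the WT libraries and from 53.0% to 59.0% over the Het libraries, with no overlap (exact two-sided permutation p = 0.0286, adjusted p = 0.08). KO, from 58.7% to 62.7%, also lay above WT (exact p = 0.0571, adjusted p = 0.08) and overlapped Het (exact p = 0.114, adjusted p = 0.133). The Tgfb2 share went from 32.7% ± 5.80 in WT to 24.3% ± 1.69 in Het and 21.9% ± 0.747 in KO. These shares, those of the receptors and the ratio of Inhba to Fst gave 21 tests in all. The smallest p that 4 libraries against 4 can give is 0.0286 and that 3 against 4 can give is 0.0571, and no adjusted value was below 0.08, so none of these tests could pass the threshold.

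Tgfbr2 fell in both Het and KO. This gene of the type II receptor, the subunit that binds the ligand (gene24520, chromosome 9, 116087695 to 116175363), was the most abundant of the 10 in WT. It measured 49.1, 50.7, 50.7 and 54.9 FPKM in WT 1 to 4, 20.0, 19.5, 21.9 and 19.9 in Het 1 to 4, and 20.4, 19.9 and 20.3 in KO 1, 3 and 4. Every WT library was above every other library, and Het and KO overlapped. The means were 51.4 ± 2.51, 20.3 ± 1.08 and 20.2 ± 0.256 FPKM in WT, Het and KO (SD, n = 4, 4 and 3), so that the WT mean was 2.53 times the Het mean and 2.54 times the KO mean. The log2 difference from WT was -1.30 in Het (SE 0.05, adjusted p = 2.7e-08) and -1.30 in KO (SE 0.06, adjusted p = 2.74e-08). KO and Het differed by -0.01, with a 95% interval from -0.14 to 0.12 (adjusted p = 0.918), and Het lay -0.64 below the midpoint of the other genotypes (adjusted p = 1.91e-06).

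Tgfbr1, the gene of the type I receptor kinase (gene9119, chromosome 4, 47353113 to 47414926), rose in KO. It measured 7.86, 7.09, 8.10 and 5.92 FPKM in WT 1 to 4, 8.09, 8.48, 7.42 and 7.29 in Het 1 to 4, and 15.1, 13.9 and 12.8 in KO 1, 3 and 4. All KO libraries lay above the rest, while WT and Het overlapped. The KO mean was 1.92 times the WT mean (log2 0.86, SE 0.10, adjusted p = 5.09e-05), and KO also exceeded Het (0.76, SE 0.10, adjusted p = 0.00014). In Het the difference from WT was 0.10 (95% interval -0.11 to 0.31, adjusted p = 0.41).

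Tgfbr3, the gene of betaglycan, a co-receptor that presents TGF-β2 and binds inhibin (gene12608, chromosome 5, 107106570 to 107289595), was the lowest of the 10 in WT. It measured 0.924, 0.737, 0.783 and 0.763 FPKM in WT 1 to 4, 3.83, 4.06, 4.55 and 3.86 in Het 1 to 4, and 3.68, 2.79 and 3.69 in KO 1, 3 and 4. All WT libraries were below 1 FPKM, so the gene entered the test through Het and KO, in which it was high. Tgfbr3 rose 5.08-fold in Het (log2 1.49, SE 0.09, adjusted p = 3.87e-07) and 4.22-fold in KO (log2 1.28, SE 0.10, adjusted p = 1.48e-06). Every Het library was above every KO library, yet the difference between them, -0.21 (95% interval -0.43 to -0.00), had an adjusted p of 0.0925. Without scaling between libraries it was -0.30 with an adjusted p of 0.0236.

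The make-up of the receptor transcripts differed between genotypes. Tgfbr2 made up 86.4% ± 1.99 of the summed FPKM of the 3 receptor genes in WT, 63.1% ± 1.70 in Het and 53.9% ± 1.64 in KO (SD, n = 4, 4 and 3). Tgfbr1 made up 12.2% ± 1.88, 24.3% ± 2.02 and 37.1% ± 2.04, and Tgfbr3 1.35% ± 0.166, 12.6% ± 0.598 and 9.02% ± 1.25. None of these shares overlapped between any 2 genotypes (exact permutation p = 0.0286 for Het against WT and 0.0571 for the comparisons with KO, adjusted p = 0.08 in each). The ratio of Tgfbr2 to Tgfbr1, 6.24 to 9.29 over the WT libraries, was 2.30 to 2.96 in Het and 1.35 to 1.59 in KO. The sum of the 3 receptor genes was 59.4 ± 1.63, 32.2 ± 1.19 and 37.5 ± 1.49 FPKM in WT, Het and KO (SD, n = 4, 4 and 3).

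**Figure D2:**
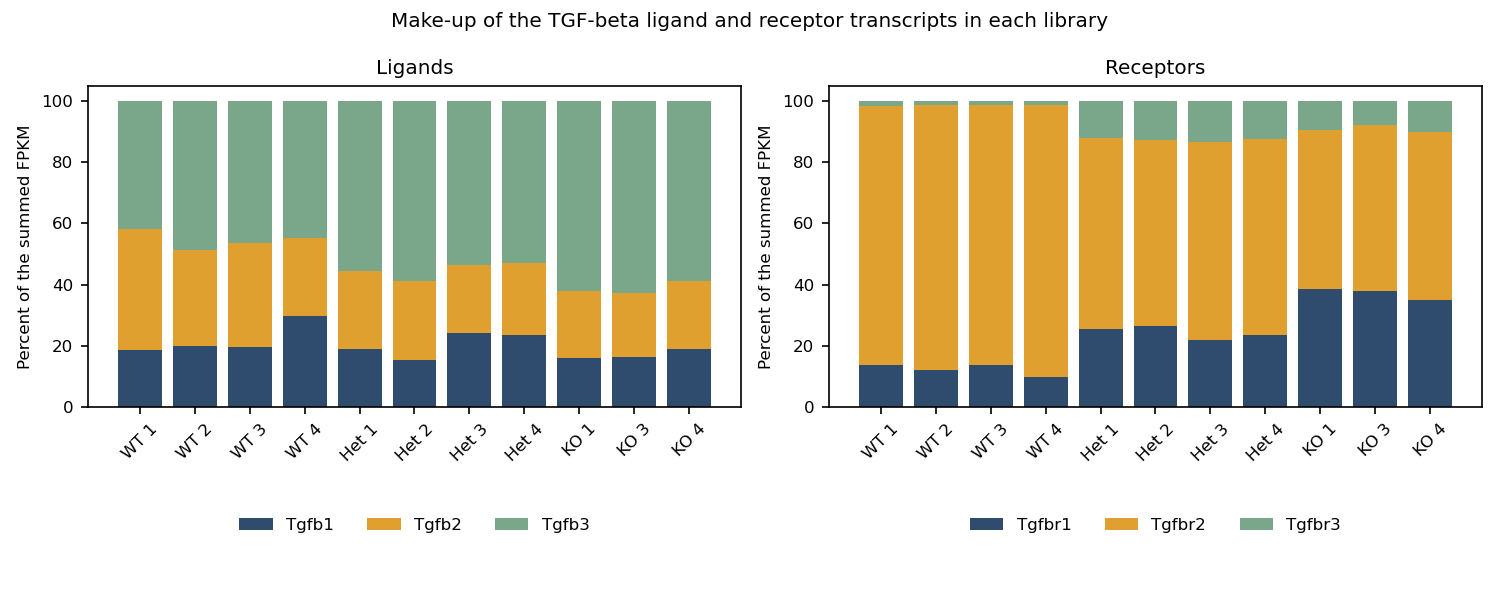
Stacked bars give, for each library, the percent of the summed FPKM (axis from 0) of Tgfb1, Tgfb2 and Tgfb3 and of Tgfbr1, Tgfbr2 and Tgfbr3. Tgfb3 averaged 45.4% of the ligand sum in WT and 61.2% in KO, and Tgfbr2 86.4% of the receptor sum in WT and 53.9% in KO.

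Inhba showed the largest contrast between Het and KO of the 10 genes. Its product, the inhibin βA chain, forms activin A (gene31833, chromosome 13, 16007745 to 16027723), and its promoter window with TATAAA is printed above. Inhba measured 9.16, 10.8, 11 and 10.9 FPKM in WT 1 to 4, 3.94, 3.60, 3.95 and 4.31 in Het 1 to 4, and 20.0, 24.2 and 24.1 in KO 1, 3 and 4. The genotypes did not overlap, with Het lowest and KO highest. WT averaged 10.5 ± 0.868 FPKM (SD, n = 4), 2.65 times the Het mean of 3.95 ± 0.289 (SD, n = 4), and KO averaged 22.8 ± 2.39 (SD, n = 3), 2.18 times WT and 5.77 times Het. Limma gave -1.21 for Het against WT (SE 0.08, adjusted p = 1.16e-06), 1.05 for KO against WT (SE 0.09, adjusted p = 4.39e-06) and 2.26 for KO against Het (SE 0.09, adjusted p = 1.36e-08).

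Fst encodes follistatin, the secreted protein that binds and neutralises activin (gene33760, chromosome 13, 114452262 to 114458951), and followed the same order. It measured 1.84, 1.73, 1.68 and 1.58 FPKM in WT 1 to 4, 0.829, 1.25, 0.882 and 0.923 in Het 1 to 4, and 4.94, 5.00 and 5.13 in KO 1, 3 and 4. No library of one genotype overlapped another genotype. The Het mean was 0.569 times and the KO mean 2.94 times the WT mean (log2 -0.46, SE 0.08, adjusted p = 0.000801, and 1.15, SE 0.09, adjusted p = 1.35e-06). These low levels are less exact within a library: the deposited Cufflinks interval of Fst reached from 18.5% to 50.7% of the value on either side.

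The balance of the activin gene and its antagonist was also compared. The log2 ratio of Inhba to Fst, each with a pseudocount of 1, was 2.08 ± 0.16, 1.33 ± 0.20 and 1.98 ± 0.13 in WT, Het and KO (SD, n = 4, 4 and 3). All Het libraries lay below all WT libraries (difference -0.75, exact permutation p = 0.0286, adjusted p = 0.08), and below all KO libraries (exact p = 0.0571, adjusted p = 0.08). WT and KO overlapped (difference -0.10, exact p = 0.343, adjusted p = 0.36). The values involving KO turned on the pseudocount. With a pseudocount of 0.1 the difference was -0.39 between KO and WT (adjusted p = 0.08) and 0.22 between KO and Het (adjusted p = 0.316), from the same permutation test.

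Ltbp1, the gene of a latent TGF-β binding protein that tethers the inactive ligand to the matrix (gene40812, chromosome 17, 75005529 to 75392967), repeated this order at a higher level. Ltbp1 measured 30.4, 31.3, 32.0 and 27.9 FPKM in WT 1 to 4, 17.7, 18.3, 17.7 and 17.2 in Het 1 to 4, and 65.3, 63.5 and 59.5 in KO 1, 3 and 4. Again Het was lowest, KO highest and no genotypes overlapped. Means were 30.4 ± 1.76, 17.7 ± 0.439 and 62.7 ± 2.98 FPKM in WT, Het and KO (SD, n = 4, 4 and 3), so that the KO mean was 2.07 times the WT mean and 3.54 times the Het mean. The log2 difference from WT was -0.74 in Het (SE 0.05, adjusted p = 1.92e-06) and 1.02 in KO (SE 0.06, adjusted p = 2.17e-07). Ltbp1 was the most precisely estimated of the 10 genes, with an interval of 4.63% to 7.89% on either side. Its printed promoter window is the one that held TGACGTCA beside the SMAD binding element.

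Smad7, the gene of an inhibitory SMAD that TGF-β signalling itself induces and that targets TGFBR1 for degradation (gene42131, chromosome 18), rose in KO. Smad7 measured 1.39, 1.39, 1.19 and 1.30 FPKM in WT 1 to 4, 1.44, 1.18, 1.22 and 1.42 in Het 1 to 4, and 3.12, 2.84 and 2.84 in KO 1, 3 and 4. KO stood apart, and WT and Het overlapped. The KO mean was 2.22 times the WT mean (log2 0.76, SE 0.08, adjusted p = 1.53e-05) and exceeded Het by 0.77 (SE 0.08, adjusted p = 1.57e-05). Het against WT gave -0.01 (95% interval -0.16 to 0.15, adjusted p = 0.953). The uncharacterised gene LOC105246491, which overlaps Smad7, averaged 1.47, 1.38 and 3.61 FPKM in WT, Het and KO, and whether strand was used in the counting is not given in the sources used here, so reads of the pair may not be separable. The loci that overlap Tgfb2, Tgfbr1, Tgfbr2, Fst and Ltbp1 averaged at most 0.53 FPKM in any genotype.

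**Figure D3:**
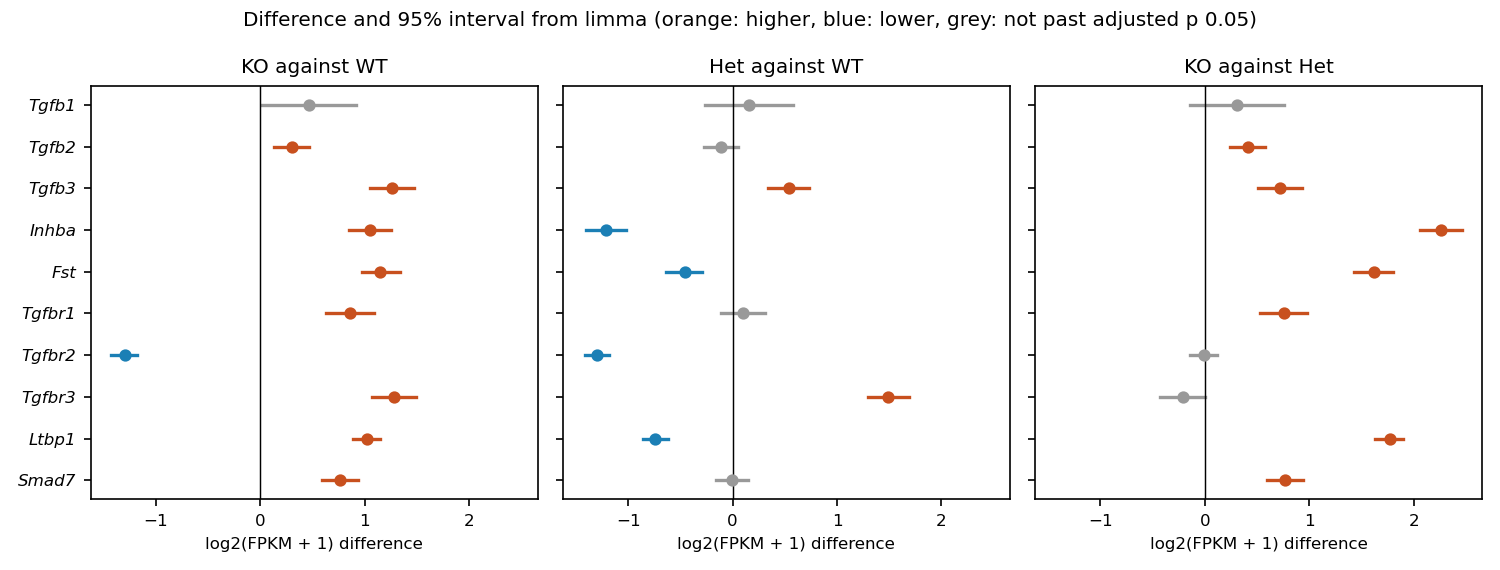
Points are limma's log2(FPKM + 1) differences and lines their 95% intervals for the 10 genes in KO against WT, Het against WT and KO against Het, coloured by call at an adjusted p of 0.05. Tgfbr2 lies at -1.30 in both comparisons with WT, and Inhba goes from -1.21 in Het to 1.05 in KO.

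In Het, 8 of the 10 genes departed from the midpoint of WT and KO (44.2% of all tested genes did). Of these, 7 lay below it (22.4%): Inhba by -1.74 (adjusted p = 2.83e-08), Ltbp1 by -1.25 (adjusted p = 1.28e-08), Fst by -1.04 (adjusted p = 9.62e-07), Tgfbr2 by -0.64, Smad7 by -0.39, Tgfbr1 by -0.33 and Tgfb2 by -0.26. Inhba, Ltbp1 and Fst were past 2-fold (3.62% of tested genes were). Only Tgfbr3 of the 10 lay above it, by 0.85 (adjusted p = 9.82e-06). The order Het below WT below KO with no overlap between genotypes was held by 3 of the 10, Inhba, Fst and Ltbp1, and by 357 of the 14942 tested genes (2.39%). In FPKM without a test, 9 of the 10 genes did not overlap between KO and WT (46.5% of tested genes), 6 between Het and WT (39.7%) and 8 between KO and Het (54%).

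The ranking of the 10 genes by level changed with genotype. In WT the order was Tgfbr2, Ltbp1, Tgfb3, Inhba, Tgfb2, Tgfbr1, Tgfb1, Fst, Smad7 and Tgfbr3, and neighbours from Tgfb3 to Tgfb1 overlapped. In Het it was Tgfbr2, then Ltbp1 and Tgfb3, which overlapped at means of 17.7 FPKM each, then Tgfbr1, Tgfb2 and Tgfb1, which overlapped in turn, then Tgfbr3 and Inhba, and last Smad7 and Fst, each of these pairs overlapping. In KO it was Ltbp1, Tgfb3, Inhba, Tgfbr2, Tgfbr1, Tgfb2, Tgfb1, Fst, Tgfbr3 and Smad7, where only Inhba with Tgfbr2 and Tgfbr3 with Smad7 overlapped. Tgfbr2, first in WT and Het, thus stood in KO behind the matrix tether Ltbp1 and the ligand genes Tgfb3 and Inhba.

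Genes with the most similar pattern were found for the 6 genes whose largest difference between 2 genotypes was at least 1 on the log2 scale, by the root mean square of the differences over the 11 libraries after subtracting each gene's WT mean. Nearest to Ltbp1 were Cpe (carboxypeptidase E, 152, 90.0 and 281 FPKM in WT, Het and KO, root mean square 0.087) and Thbs1 (0.111), the gene of thrombospondin-1, an activator of latent TGF-β. Thbs1 averaged 103, 60.3 and 237 FPKM. Nearest to Inhba were Tmem171 (3.55, 0.65 and 9.24 FPKM, root mean square 0.209) and Pmepa1 (0.234), a gene that TGF-β induces and whose product limits the access of SMAD2 and SMAD3 to the receptor. Among the genes near to Fst was Tmeff2 (3.50, 2.51 and 8.90 FPKM, 0.140). For Tgfb3 they were Adck1 (4.34, 6.03 and 10.9 FPKM, 0.113) and Palld (31.2, 42.9 and 73.7 FPKM, 0.122), the gene of the actin-binding protein palladin. Tgfbr2 had Fam134b (38.5, 14.5 and 16.7 FPKM, 0.155) and Agpat9 (8.54, 3.18 and 3.27 FPKM, 0.168), and Tgfbr3 had Setbp1 (0.976, 5.50 and 4.06 FPKM, 0.175) and Lgr4 (4.33, 11.6 and 12.8 FPKM, 0.180).

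**Figure D4:**
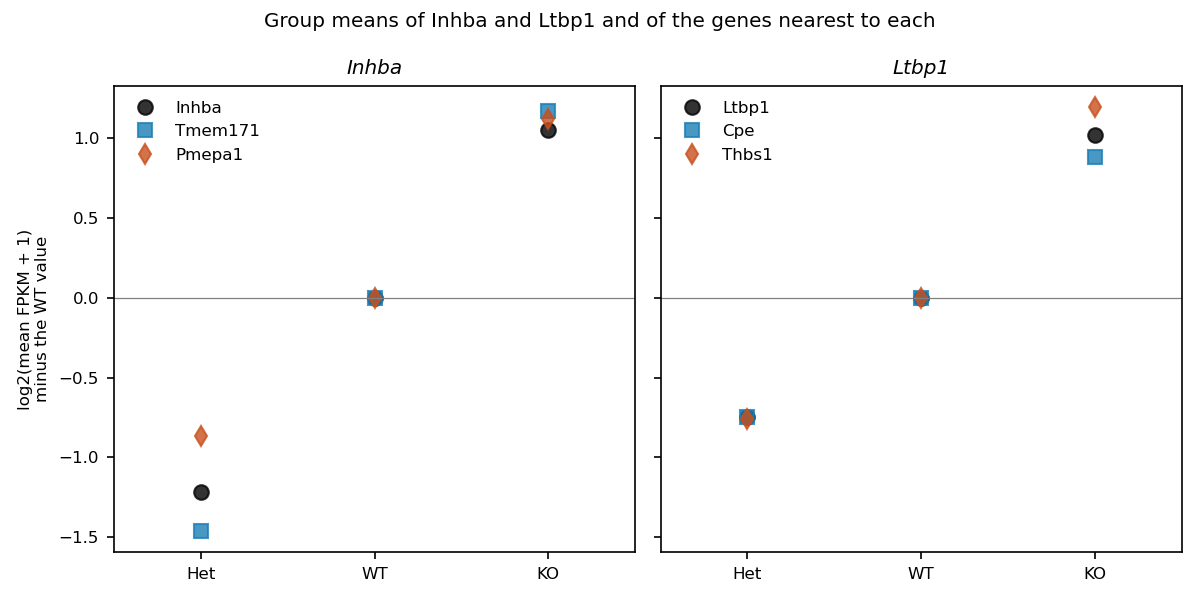
Group means of Inhba and Ltbp1 and of the 2 genes nearest to each in pattern, as log2(mean FPKM + 1) minus the WT value, in Het, WT and KO. In each panel all 3 genes lie below 0 in Het and above 0 in KO, as the choice of the nearest genes implies.

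The rest of the pathway was described by lists chosen from general knowledge, but with earlier results of these data known. The shares over all tested genes beside their counts are therefore a description and not a test. Of 30 extracellular regulators and further ligands, 21 could be tested, of which 13 were higher and 3 lower in KO than in WT (median 0.45) and 10 higher and 4 lower in Het than in WT (median 0.21). Of all tested genes, 23.5% were higher and 23.7% lower in KO (median 0.01), and 22.2% were higher and 21.6% lower in Het (median 0.02). Lrrc32, which encodes GARP, a cell surface docking protein for latent TGF-β, rose from 1.71 ± 0.643 FPKM in WT (SD, n = 4) to 8.36 ± 0.933 in Het (SD, n = 4) and reached 20.8 ± 0.729 in KO (SD, n = 3; log2 1.81 and 3.04, adjusted p = 3.19e-06 and 8.39e-08). The small proteoglycans, which bind TGF-β, went different ways. Bgn (biglycan) averaged 151 FPKM in WT, 285 in Het and 10.0 in KO (log2 0.91 and -3.80 from WT, adjusted p = 2.9e-05 and 7.18e-10). Dcn (decorin) rose in Het, from 0.797 to 60.0 FPKM (5.09, adjusted p = 7.66e-10), and averaged 1.17 in KO (0.28, adjusted p = 0.132; 0.38, adjusted p = 0.0426 without WT 3). Fmod (fibromodulin) rose in both, from 0.153 to 4.88 and 8.47 FPKM (2.35 and 3.01, adjusted p = 1.67e-07 and 2.74e-08). Fmod lay below 1 FPKM in every WT library and so entered the test through Het and KO, in which it was high.

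Of 11 other receptors, 6 could be tested: 1 was higher and 4 were lower in KO than in WT (median -0.40; 23.5% and 23.7% of all tested genes were), and 1 was higher and 1 lower in Het than in WT (median 0.15; 22.2% and 21.6%). The co-receptor gene Eng (endoglin) averaged 11.8 FPKM in WT, 12.6 in Het and 0.224 in KO (-3.35 in KO, adjusted p = 7.17e-08, and 0.13 in Het, adjusted p = 0.545). Eng lay below 1 FPKM in every KO library and so entered the test through WT and Het. Acvr1, a type I receptor gene, was the one that rose in KO, from 10.9 to 25.6 FPKM (1.17, adjusted p = 2.07e-06). Bmpr1a, a receptor for bone morphogenetic proteins, fell from 29.8 to 18.9 FPKM (-0.63, adjusted p = 0.0013). Of the receptors that activin uses, the type I gene Acvr1b fell from 7.13 FPKM in WT to 4.98 in Het (-0.43, adjusted p = 0.00771) and 4.80 in KO (-0.48, adjusted p = 0.00622). The type II gene Acvr2a, at 4.34, 5.26 and 5.02 FPKM, was not called (adjusted p = 0.141 in Het and 0.281 in KO), and Acvr2b, at 0.296, 0.417 and 0.515 FPKM, was too low to test.

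All 22 SMAD genes and intracellular regulators were tested. In KO 8 were higher and 3 lower than in WT (median 0.12; 23.5% and 23.7% of all tested genes were), and in Het 5 were higher and 5 lower (median -0.04), near the shares of 22.2% and 21.6% over all tested genes. Smad3 averaged 19.2, 18.8 and 18.3 FPKM in WT, Het and KO (-0.03 and -0.07 from WT, adjusted p = 0.754 and 0.465). Smad4, the shared partner of the receptor-activated SMADs, rose from 24.2 to 32.5 FPKM in both Het and KO (0.41 in each, adjusted p = 0.000983 and 0.00143). Smad2 rose in Het (9.72 to 13.2 FPKM, 0.41, adjusted p = 0.00418) and averaged 11.6 FPKM in KO (0.23, adjusted p = 0.0778). That call in KO was made without WT 1 (0.28, adjusted p = 0.0455) or KO 4 (0.32, adjusted p = 0.0264). Tgif1, a repressor that binds SMAD2, rose from 13.9 to 20.1 and 35.1 FPKM (0.50 and 1.27, adjusted p = 0.00313 and 6.77e-06). Pmepa1 fell to 6.31 FPKM in Het from 12.3 in WT and rose to 27.9 in KO (-0.86 and 1.13, adjusted p = 3.17e-05 and 5.7e-06). Ppm1a, a phosphatase of SMAD2 and SMAD3, rose in KO from 20.8 to 35.9 FPKM (0.77, adjusted p = 4.54e-05), and Zfyve9, the SMAD anchor SARA, fell from 12.7 to 8.09 in Het and 9.10 in KO (-0.59 and -0.44, adjusted p = 0.000408 and 0.00388).

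Of 40 genes known to respond to TGF-β, 39 were tested: 32 were higher and 3 lower in KO than in WT (median 1.22; 23.5% and 23.7% of all tested genes were), and 22 were higher and 8 lower in Het than in WT (median 0.56; 22.2% and 21.6%). The list is mixed in kind, and 11 of its 40 genes are also in another list. The contractile genes Acta2 (55.8, 201 and 6519 FPKM in WT, Het and KO) and Cnn1 (1.35, 2.51 and 266 FPKM) rose most in KO, by 6.84 and 6.82 (adjusted p = 3.13e-13 and 3.48e-11). Both, and Tagln of the same list (43.6, 39.6 and 832 FPKM, 4.22 in KO, adjusted p = 8.87e-12), are also smooth muscle markers. The marker sum given above is led by Acta2 and Tagln, so it holds the same values and is not a separate observation. The part of these genes in the result for the list was not tested. The collagen genes Col3a1 (1.37, 71.7 and 38.7 FPKM) and Col1a2 (6.82, 193 and 11.5 FPKM) were highest in Het (4.94 and 4.65 from WT, adjusted p = 2.16e-10 and 7.4e-09). The other collagen genes of the list, given after their values were seen, had their highest means in KO. Col1a1 averaged 170, 320 and 630 FPKM and Col5a1 24.6, 35.2 and 37.1. Neither was called between KO and Het (0.98 and 0.07, adjusted p = 0.0684 and 0.839). In KO against WT, Col1a1 was called (2.05, adjusted p = 0.00155) and Col5a1 was not (0.63, adjusted p = 0.0548). The order of Inhba, Fst and Ltbp1, with Het below WT and WT below KO, was held by 6 of the 39 (15.4%, beside 2.39% of all tested genes), among them Ctgf, Cdkn2b, Skil, Pmepa1 and Edn1, singled out after their values were seen. Ctgf, the gene of a matricellular protein that both TGF-β and the actin-sensitive YAP pathway induce, averaged 47.5 ± 3.47 FPKM in WT, 7.21 ± 1.19 in Het and 101 ± 5.05 in KO (SD, n = 4, 4 and 3; -2.57 and 1.08 from WT, adjusted p = 1.69e-08 and 1.37e-05).

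Neighbouring genes were read to see whether the differences extended along the chromosome. Of the 20 nearest tested genes, 1 on each side of each locus, 7 were higher and 5 lower in KO than in WT (23.5% and 23.7% of all tested genes were). Of the 18 beside a called gene, 7 were called in the direction of that gene and 5 in the opposite one. In Het 2 were higher and 6 lower (22.2% and 21.6% of all tested genes were), and of 12 beside a called gene 5 went the same way and 1 the opposite way. Both neighbours of Tgfbr2, Gm9385 (46.6 kb away) and Rbms3 (397.4 kb away), were not called in KO (-0.06 and -0.10, adjusted p = 0.53 and 0.498), where Tgfbr2 fell. In Het, where Tgfbr2 fell too, Gm9385 rose (0.43, adjusted p = 0.000352) and Rbms3 was not called (-0.24, adjusted p = 0.0835). Both neighbours of Fst, Ndufs4 and Mocs2, fell in KO (-0.59 and -0.87, adjusted p = 6.55e-05 and 8.88e-05), where Fst rose, and in Het (-0.71 and -0.91, adjusted p = 1.29e-05 and 4.61e-05), where Fst fell. Inhba rose in KO, where both its neighbours, Gli3 (277.7 kb away) and Gm6562 (17.9 kb away), fell (-0.28 and -0.36, adjusted p = 0.00405 and 0.0324). In Het, where Inhba fell, Gli3 fell too (-0.18, adjusted p = 0.0307) and Gm6562 was not called (-0.20, adjusted p = 0.181). Tgfb3 rose in KO with both its neighbours, Ttll5 (3.0 kb away) and Ift43 (3.5 kb away; 0.29 and 0.64, adjusted p = 0.0206 and 0.000101). Smad7 did so with Gm20544 (0.2 kb away) and Ctif (35.3 kb away), at 1.69 and 0.32 (adjusted p = 7.76e-07 and 0.0122). Rasgrp3, 42.9 kb after Ltbp1, rose in KO with it (2.38, adjusted p = 7.64e-09) and in Het gave -0.14 (adjusted p = 0.21), where Ltbp1 fell.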

How the data were processed

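Poly(A) RNA of 11 samples was sequenced from stranded mRNA libraries, per the labels' protocols. The deposited values are FPKM per gene locus (48892 loci), made by the authors with TopHat2 2.1.0 and Cufflinks 2.2.1 on GRCm38.p4, per the submitters' processing notes, which also name Cuffdiff. The strand setting of the counting is not given in the sources used here. The tables hold no counts, so no count model was used, and relative depth was read from the step that 1 fragment makes in FPKM below 0.3. Relative depth spanned 61.3% to 126% of WT 1.

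FPKM were summed per symbol (1766 symbols had several loci, none of them among the 10 genes). In WT 1, 31 symbols turned into dates were restored by position. Median-of-ratios scaling used 12503 genes and gave factors from 0.941 to 1.04. Genes with at least 1 FPKM in at least 3 libraries were kept. Limma 3.58.1 in R 4.3.3 was fitted to log2(FPKM + 1) over all 14942 genes, with 1 mean per genotype, all 11 libraries sharing the spread, and Benjamini-Hochberg adjustment at 0.05. Shares and ratios were compared by exact two-sided permutation tests (scipy 1.17.1). On simulated data the fit recovered, in KO against WT over 14942 genes, 65.7% of 67 genes set to 1.5-fold, 89.6% of 67 at 2-fold and 98.5% of 66 at 4-fold. The changed genes were drawn only from genes with WT levels above those of Tgfbr3, Smad7 and Fst, so these shares do not cover such low genes.

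The 10 genes and the lists were chosen with earlier results of these data known. The rule for named genes takes all 10, up to 4 genes of each list with the largest difference past the threshold, 7 partner genes (Acvr1b, Acvr2a, Acvr2b, Eng, Smad2, Smad3 and Smad4), and for each of the 10 genes with a difference of at least 1 the 2 genes nearest in pattern that average 5 FPKM or more in their highest genotype, predicted and clone names left out. Some genes that fit these rules are not reported here. Alternatives were another pseudocount (0.1), no scaling, quantile normalization, no filter, 1 locus per symbol, fits of only 2 genotypes, the replicate number as a block, and leaving out each library.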

Additional observations from a re-analysis of the deposited data

Results flagged for a closer look

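Groups of 4 libraries were checked for a library far from the others, by the gap to its nearest neighbour over the range of the group (limit 0.829). Of 34 groups 3 were flagged, and chance flags about 1 in 20. Inhba in WT 1 measured 9.16 FPKM, beside 10.8 to 11 in the other WT libraries (0.912 of the range). The Tgfb1 share of the ligand sum in WT 4 was 29.6%, beside 18.7% to 19.8% in the other WT libraries (0.896 of the range). WT 4 was also the library that decided the call of Tgfb1 in KO against WT. The log2 ratio of Inhba to Fst in Het 2 was 1.03, beside 1.39 to 1.46 in the other Het libraries (0.839 of the range).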

How the results depend on the processing

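Of 710 recomputed differences of the 10 genes, 699 kept their direction and side of the threshold. The exceptions with a call were Tgfb1 in KO against WT, called without WT 4 (0.65, adjusted p = 0.00473), Tgfb2 in KO against WT, not called under quantile normalization (0.24, adjusted p = 0.0615), and Tgfbr3 in KO against Het, called without scaling (-0.30, adjusted p = 0.0236), which raised the number of the 10 genes lower in KO than in Het from 0 to 1. The cause was not tested. Values near 0 changed sign when 1 library was left out: Smad7 in Het against WT ranged from -0.03 to 0.02, Tgfbr2 in KO against Het from -0.03 to 0.03, Tgfb1 in Het against the midpoint from -0.15 to 0.06, the Tgfb1 share in Het against WT from -2.66 to 1.09 percentage points, Smad3 from -0.13 to 0.01 in KO and -0.06 to 0.02 in Het, and Eng in Het from -0.01 to 0.27. Same-numbered libraries correlated between -0.10 and 0.35 in their deviations, above 0.1 in 5 of 10 pairs, with the 3 pairs of number 4 between 0.254 and 0.352, and 6 of 11 libraries correlated best with their own number, a hint from the data. Since not every pair was above 0.1 and no label gives a shared source, the numbers were not taken to pair the samples. With the replicate block limma called 7301 genes in KO against WT, 7019 in Het against WT and 6898 in KO against Het, beside 7050, 6546 and 6632 without it, and it also called Smad2 in KO against WT (0.24, adjusted p = 0.0159) and Bmpr1a in Het against WT (-0.26, adjusted p = 0.0214). FPKM tables limit the precision of the lowest genes: the Cufflinks interval reached 37.1% of the value on either side for Tgfbr3 and 50.7% for Fst.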
